A study of Mus musculus with 24 samples.

Results

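The effect of deleting the microRNA miR-155 was set against itself in activated B cells and activated macrophages of the mouse, by RNA sequencing. Knockout (KO) and wild-type (WT) libraries of both cell types were used, 12 of the 24 libraries of the series, 3 in each of 4 groups. The KO B cells and WT B cells came from spleens, had been purified by CD43 depletion, and were stimulated in culture with LPS at 25 ug/ml and interleukin 4 at 6.5 ng/ml. The KO macrophages and WT macrophages were elicited in the peritoneal cavity with thioglycollate and stimulated with LPS at 100 ng/ml. All mice were on the C57BL/6J background, and no age or cell-specific deletion is stated. The 3 libraries of a group are described as sequencing replicates and no separate mice are named. Each p-value therefore measures only how far libraries of 1 group lie apart, which may be technical variation. The stimuli differ between the cell types, and cell type and stimulus cannot be told apart in the difference.

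All genes with enough counts in at least 1 of the 4 groups entered, which were 11490 of the 20673 gene symbols. For each gene the KO effect is the log2 fold change, KO minus WT. The quantity of interest is the KO effect in B cells minus the KO effect in macrophages, a difference on the log2 scale that is positive where the KO effect is higher in B cells. Of the genes tested, 9403 were expressed in both cell types, 748 in B cells alone and 1293 in macrophages alone. A gene was called at an adjusted p under 0.05 (edgeR quasi-likelihood test, Benjamini-Hochberg over the 11490 genes). Levels are CPM, counts scaled to a common library total, and are compared within a gene.

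MicroRNAs are short RNAs that guide Argonaute proteins to messenger RNAs, mainly by pairing of the seed near their 5' end with sites in 3' untranslated regions (UTRs), and the paired messages are repressed or destabilised. miR-155 is induced by Toll-like receptor and antigen receptor signals in both lymphocytes and myeloid cells. In B cells it is known for its part in germinal centre responses and class switching. In macrophages it is known for sustaining the inflammatory response through targets such as Inpp5d, which encodes the phosphatase SHIP1, and Socs1, which encodes an inhibitor of cytokine signalling.

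The mature miRNA is shown because every site class used here derives from its seed, bases 2 to 8, in capitals. Its arm lies on the plus strand at chr16:84714143-84714165 (RefSeq, GRCm38.p6).
mmu-miR-155-5p: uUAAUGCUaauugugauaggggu
The sites searched on the sense strand of the longest annotated 3' UTR were AGCATTAA (8mer), AGCATTA (7mer-m8), GCATTAA (7mer-A1) and GCATTA (6mer), each shorter one counted only where no longer one contains it. Genes holding any of the first 3 motifs are named seed-matched here, and they were 13.7% of the genes tested.

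The next sites belong to all 5 seed-matched genes whose KO effect was called different between the cell types, all 7mers, with the match in capitals (GENCODE transcripts, GRCm38 coordinates, written along the transcript). The Stap1 site lies at chr5:86103953-86103981 on the plus strand, that of Slc37a2 at chr9:37231100-37231128 on the minus strand, and that of Gsr at chr8:33697926-33697954 on the plus strand. For Dock9 the site is at chr14:121542664-121542692 and for Bcat1 at chr6:144998045-144998073, both on the minus strand.
Stap1: tgcatttctttGCATTAAatagaaaaaaa
Slc37a2: agccactttgaAGCATTAgtgctgccttt
Gsr: tggaacaaagtGCATTAAagttagacttg
Dock9: taagcctagtcAGCATTAtagaaccaaag
Bcat1: caagacagtagAGCATTAggaccatgtaa

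The last set belongs to targets that were higher in the KO of both cell types and for which no difference was called, 3 with an 8mer and Picalm with a 7mer-m8 shown. They lie in the 3' UTRs of Bach1 at chr16:87732177-87732206, of Jarid2 at chr13:44920082-44920111 and of Picalm at chr7:90208421-90208449 on the plus strand, and of Tab2 at chr10:7906680-7906709 on the minus strand.
Bach1: atgaacagtttAGCATTAAgggttaatttt
Jarid2: gattttgttttAGCATTAAactgttcaagt
Picalm: atttaaaactcAGCATTAgtgcattggga
Tab2: ataaggtagaaAGCATTAAtgaaatgaaac

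Total gene counts ran from 9152770 to 11473588 in the B cell libraries and from 11479765 to 14219823 in the macrophage libraries. The WT macrophage libraries stood apart from the other groups in their spread. The median gene's coefficient of variation over 3 libraries was 6.95% in KO B cells and 5.93% in WT B cells, against 7.23% in KO macrophages and 15.6% in WT macrophages. Between pairs of libraries, the chi-square per gene was 4.54 to 12.4 in KO macrophages and 39.23 to 160.69 in WT macrophages, with the largest value between WT replicates 2 and 3. Each call below rests on 1 dispersion per gene for both cell types. The wide WT macrophage group thus also enters the error of the B cell effect, and the tighter B cell groups that of the macrophage effect. Results are therefore given also without WT macrophage replicate 3, and with limma voom, a fit that gives each group its own weight. That library was chosen after the spread had been seen, and leaving it out narrows the WT macrophage group. The adjusted p-values of that fit are therefore likely too small, and its calls show only how results depend on that library. Cd79a, Cd79b and Ms4a1 marked the B cells and Adgre1, Csf1r and Cd14 the macrophages, each at high levels in its own cell type. The level of miR-155 itself was not analysed here, so the genotypes rest on the sample titles.

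In the joint fit more genes were called in macrophages than in B cells, and 74 of the 80 genes whose effect differed were called in macrophages. With each cell type fitted alone the order turned round, with 325 genes called in B cells and 95 in macrophages. The difference was called for 80 genes (0.696% of those tested), 52 with a higher KO effect in B cells (0.453%) and 28 with a lower one (0.244%), and all 80 were expressed in both cell types. In B cells, 37 genes were called (0.322%), 35 higher in KO (0.305%) and 2 lower in KO (0.0174%). In macrophages, 997 genes were called (8.68%), 509 higher in KO (4.43%) and 488 lower in KO (4.25%). Among the genes expressed in both cell types the median size of the KO effect was 0.09 in B cells and 0.18 in macrophages on the log2 scale. The median of the difference over all genes tested was 0.06, so that a list with a small positive median is near that of all genes.

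Of the 52 genes with a higher effect in B cells, 45 were called lower in KO macrophages, and 4 were called higher in KO B cells. The effect was larger in size in macrophages for 43 of the 52, and in 29 of the 52 the B cell effect was under 0.25 in size. All 28 genes with a lower effect in B cells were called higher in KO macrophages, none of them was called in B cells in the joint fit, and 22 of the 28 had a B cell effect under 0.25 in size. Libraries of KO and WT macrophages did not overlap for 50 of the 52 and for all 28. Libraries of KO and WT B cells did not overlap for 33 of the 52 and for 8 of the 28. Over all genes tested, KO B cells lay wholly above WT B cells for 11.9% and wholly below for 7.97%, and KO macrophages lay wholly above WT macrophages for 12.1% and wholly below for 11.7%. These genes were selected on the difference, which uses the same libraries, so those counts describe the calls and do not add support to them.

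**Figure D1:**
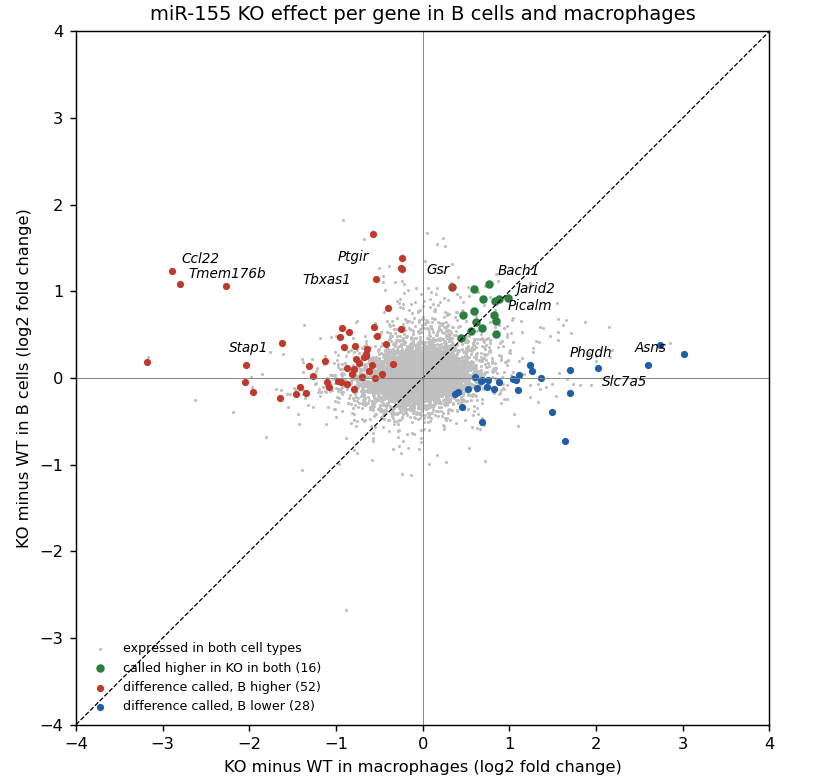
Each point is 1 gene expressed in both cell types, with its KO effect in macrophages on the x axis and in B cells on the y axis (log2 fold change, KO minus WT). Red and blue points are the 52 and 28 genes whose effect was called higher or lower in B cells, green points the 16 genes called higher in KO in both, and the dashed line marks equal effects; most red and blue points lie near the horizontal line of no B cell effect.

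These counts depend on the libraries used. Leaving out B cell KO replicates 1, 2 or 3 gave 31, 18 and 28 called differences, and leaving out B cell WT replicates 1, 2 or 3 gave 18, 16 and 28. Without macrophage KO replicates 1, 2 or 3 the counts were 29, 25 and 45, and without macrophage WT replicates 1, 2 or 3 they were 37, 179 and 1950. The fit without WT macrophage replicate 3 called 1089 genes as higher in B cells (9.38%) and 861 as lower (7.41%), 16.8% in all, with 111 genes called in B cells (0.956%) and 3864 in macrophages (33.3%). It still called all 80 genes, but it shares its other libraries with the main fit. The voom fit called 61 differences (0.531%), 246 genes in B cells (2.14%) and 393 in macrophages (3.42%), and it called 38 of the 52 and 9 of the 28. The separate fits tested 10151 genes in B cells (3.2% called) and 10730 in macrophages (0.885% called). With the replicate number as a block, 128 differences were called, 83 higher and 45 lower in B cells.

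Most genes with a large positive difference had KO levels above or near WT in B cells and were called lower in KO macrophages. Tmem176b, which encodes a transmembrane protein of antigen-presenting cells, was at 94.1, 109 and 89.8 CPM in KO B cells and 45.1, 54.2 and 38.0 CPM in WT B cells. In macrophages it was at 1.97, 2.90 and 3.07 CPM in KO and 8.92, 28.4 and 17.9 CPM in WT. The KO libraries were thus all high in B cells and all low in macrophages, with no overlap in either cell type. The difference was 3.89 (SE 0.48, edgeR adjusted p = 0.00531), made of 1.09 in B cells (adjusted p = 0.211, not called here, but 0.000721 in voom and 0.00195 with B cells fitted alone) and -2.80 in macrophages (adjusted p = 0.0016). Its relative Tmem176a, named after its values were seen, had a difference of 3.33 (SE 0.46).

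Ccl22, which encodes a chemokine that attracts T cells carrying CCR4, had the same arrangement. It was at 53.4, 51.1 and 59.3 CPM in KO B cells and 26.9, 22.1 and 20.7 CPM in WT B cells, against 0.518, 0.518 and 0.307 CPM in KO macrophages and 2.30, 1.92 and 5.98 CPM in WT macrophages. WT macrophage replicate 3 was the highest macrophage library, and the groups did not overlap in either cell type. The KO macrophage levels rest on few reads. The difference was 4.12 (SE 0.56, edgeR adjusted p = 0.00702) and 3.43 without that library. The B cell effect of 1.23 missed the threshold in this fit (adjusted p = 0.0537) and passed it when B cells were fitted alone (adjusted p = 1.19e-06). The macrophage effect of -2.89 passed it in this fit (adjusted p = 0.00638) and in voom (adjusted p = 0.0213). It missed the threshold when macrophages were fitted alone (adjusted p = 0.0814).

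For a further set of genes no B cell effect was called in the joint fit and the macrophages showed a large fall. Stap1, which encodes an adaptor of antigen receptor and cytokine receptor signalling, was at 26.4, 28.7 and 27.9 CPM in KO B cells and 25.0, 26.4 and 23.6 CPM in WT B cells, against 7.46, 10.4 and 6.55 CPM in KO macrophages and 29.5, 30 and 40.4 CPM in WT macrophages. The B cell groups nearly touch, while KO macrophages lay far below WT macrophages. The difference was 2.18 (SE 0.22, edgeR adjusted p = 0.00352). Its 3' UTR carries the miR-155 site shown above. Plbd1, which encodes a lysosomal phospholipase B-like protein, was at 82.3, 97.9 and 85.8 CPM in KO B cells and 68.4, 64.1 and 68.7 CPM in WT B cells, against 181, 145 and 169 CPM in KO macrophages and 446, 381 and 699.9 CPM in WT macrophages, and its difference was 2.03 (1.73 without WT macrophage replicate 3). KO lay above WT in B cells without overlap. That effect was not called in the joint fit (0.40, adjusted p = 0.761) or by voom (adjusted p = 0.058). It was called with B cells fitted alone (0.39, adjusted p = 0.00631). Fgd2, which encodes an activator of the small GTPase Cdc42 and is named after its values were seen, was at 153, 161 and 172 CPM in KO B cells and 144, 136 and 147 CPM in WT B cells, against 0.207, 0.622 and 0.717 CPM in KO macrophages and 3.74, 6.64 and 3.80 CPM in WT macrophages. KO lay above WT in B cells by little and far below it in macrophages, with a difference of 3.37 (SE 0.38, edgeR adjusted p = 0.00401). The Fgd2 levels in KO macrophages rest on few reads.

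Pld4, which encodes an endolysosomal exonuclease that degrades single-stranded nucleic acids, was at 103, 114 and 112 CPM in KO B cells and 104, 114 and 121 CPM in WT B cells, against 14.5, 13.1 and 28.8 CPM in KO macrophages and 76.8, 84.6 and 71.2 CPM in WT macrophages. Its B cell groups overlapped, and the highest KO macrophage library, replicate 3, still lay under every WT macrophage library. The difference was 2.0 (SE 0.30, edgeR adjusted p = 0.0136). Tlr9, which encodes the endosomal receptor for CpG DNA, was at 66.6, 61.8 and 61.2 CPM in KO B cells and 78.1, 64.5 and 69.2 CPM in WT B cells, against 0.207, 0.829 and 0.819 CPM in KO macrophages and 2.01, 3.06 and 2.18 CPM in WT macrophages. Its B cell groups overlapped, the macrophage levels rest on few reads, and the difference was 1.80 (SE 0.36, edgeR adjusted p = 0.0486). It lost its call in the voom fit (adjusted p = 0.172) and in 11 of the 12 fits that left out 1 library.

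**Figure D2:**
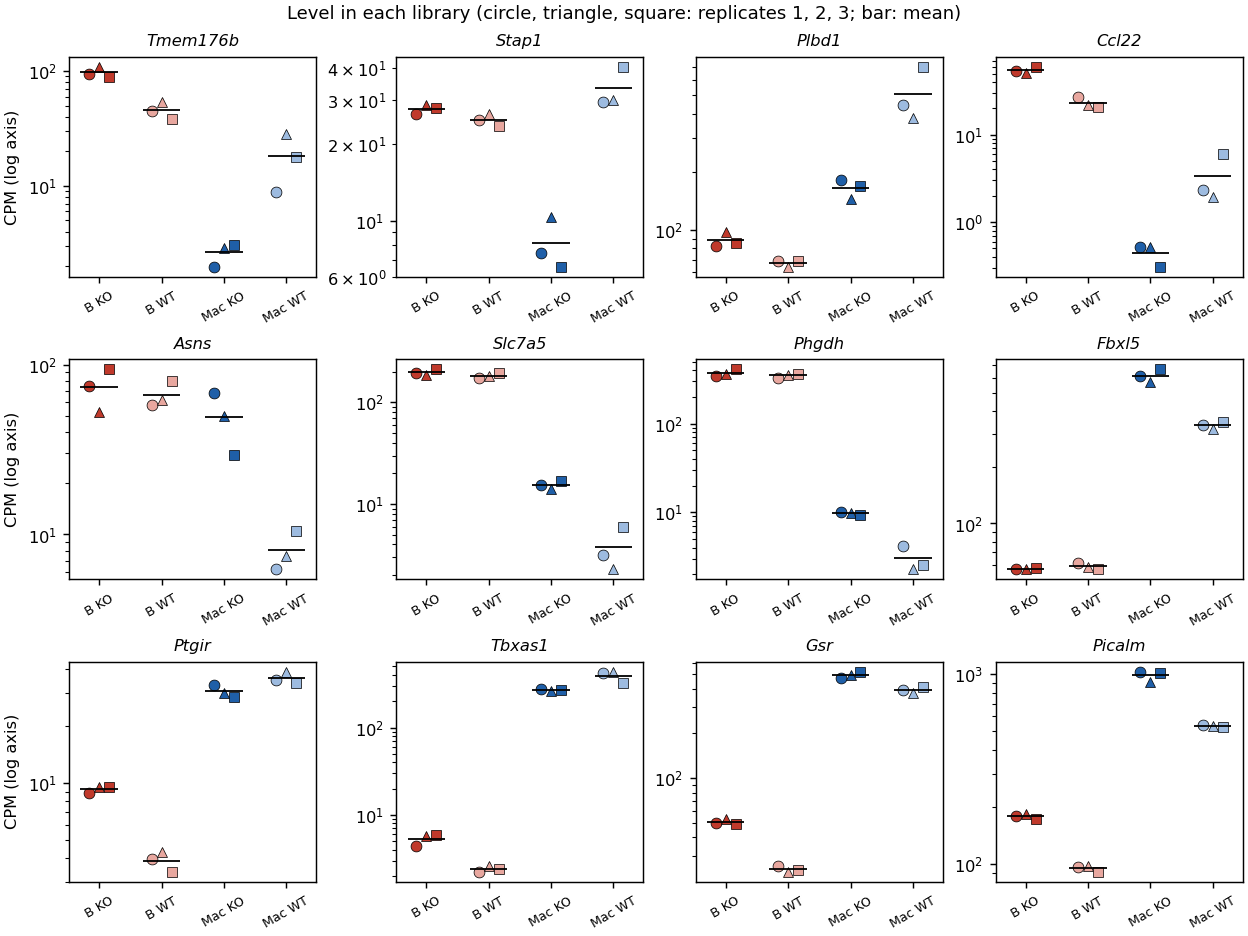
CPM of 12 genes in every library on a log axis, for KO and WT B cells (dark and light red) and KO and WT macrophages (dark and light blue), with bars at the group means. Tmem176b and Ccl22 are high in KO B cells and low in KO macrophages; Asns, Slc7a5, Phgdh and Fbxl5 separate KO from WT in macrophages and overlap in B cells; Picalm is higher in KO in both.

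Pecam1, Vegfa, Dhrs3, Tubb2a, Cytip and Slc37a2 were also called lower in KO macrophages, with no B cell effect called in the joint fit. With B cells fitted alone, Vegfa (edgeR adjusted p = 0.00746) and Tubb2a (0.0314) were called higher in KO. With macrophages fitted alone, Pecam1 and Dhrs3 were called. Vegfa (edgeR adjusted p = 0.0894), Tubb2a (0.0506), Cytip (0.104) and Slc37a2 (0.0697) were not called in that macrophage fit. Pecam1, the adhesion molecule CD31, was at 45.2, 38.4 and 34.7 CPM in KO B cells and 44.2, 42.9 and 51.5 CPM in WT B cells, against 10.2, 7.88 and 9.21 CPM in KO macrophages and 26.0, 29.7 and 29.6 CPM in WT macrophages. The groups overlapped in B cells and were far apart in macrophages. Its difference was 1.42 (SE 0.18, edgeR adjusted p = 0.00531). Vegfa, which encodes an angiogenic growth factor, was at 14.7, 15.4 and 17.2 CPM in KO B cells and 11.4, 10.6 and 9.70 CPM in WT B cells, against 61.9, 50.1 and 44.4 CPM in KO macrophages and 89.2, 128 and 79.5 CPM in WT macrophages. The KO libraries of Vegfa were higher in B cells and lower in macrophages without overlap in either, and the difference was 1.51 (SE 0.25, edgeR adjusted p = 0.0237).

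Dhrs3, which encodes a retinal reductase, had a macrophage effect of -1.31 and a difference of 1.45. Tubb2a, a beta-tubulin gene with close paralogs among which reads could be split, had a macrophage effect of -0.85 and a difference of 1.37. Cytip, which encodes an adhesion regulator that binds cytohesin, had a macrophage effect of -1.12 and a difference of 1.32 (adjusted p = 0.0495 in edgeR and 0.0839 in voom). Slc37a2, a sugar-phosphate exchanger gene with a miR-155 site, was at 13.4, 15.5 and 14.1 CPM in KO B cells and 10.6, 13.1 and 9.79 CPM in WT B cells, against 50.6, 52.0 and 49.4 CPM in KO macrophages and 112, 104 and 70.2 CPM in WT macrophages. Its difference of 1.27 (adjusted p = 0.0294) was 1.44 without WT macrophage replicate 3, the lowest of its WT libraries.

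Of the genes on this side, Tmem176b, Tmem176a, Ccl22, Fgd2, Stap1, Plbd1, Pecam1 and Tubb2a were called in each of the 12 fits that left out 1 library. Pld4 was called in 9 of them, Vegfa in 4, Cytip in 3, and Dhrs3 and Slc37a2 in 2 each. The highest adjusted p was 0.155, for Cytip without macrophage KO replicate 1. Several of these genes are also expressed by other antigen-presenting cells that a peritoneal preparation can hold. The summed level of 8 dendritic cell markers was 7.46, 9.12 and 12.1 CPM in KO macrophages and 11.1, 10.4 and 13.5 CPM in WT macrophages, with Xcr1 at 0. Single markers of that sum went opposite ways without overlap. Ccr7 was lower in KO macrophages, at 1.035, 1.348 and 1.74 CPM against 3.164, 2.183 and 5.505 CPM in WT macrophages. Zbtb46 was higher in KO macrophages, at 1.553, 2.073 and 1.638 CPM against 0.4794, 1.485 and 0.7593 CPM in WT macrophages. The other markers of the sum did not separate the genotypes, and all these levels rest on few reads. The part of other antigen-presenting cells in the genes on this side was not tested. The 8 B cell markers summed to 103 ± 15.7 CPM in KO macrophages and 103 ± 52.8 CPM in WT macrophages (SD, n = 3 each), most of it Cd22, with Pax5 at 0.102 to 0.726 CPM in KO and 0.175 to 0.380 CPM in WT.

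A smaller set of genes was called in B cells. Of the 80 genes, 4 were called in B cells in the joint fit, all higher in KO. With B cells fitted alone more of the 80 were called, in both directions. Among those higher in KO were Ccl22, Tmem176b, Tmem176a, Plbd1, Vegfa and Tubb2a. Ptgir, which encodes the prostacyclin receptor, was at 8.82, 9.54 and 9.48 CPM in KO B cells and 3.94, 4.30 and 3.38 CPM in WT B cells, and in macrophages at 33.1, 30.1 and 28.6 CPM in KO and 35.2, 38.8 and 33.9 CPM in WT. Each KO B cell library was at about the same level and above all WT libraries, while in macrophages KO lay just under WT. The difference was 1.49 (SE 0.16, edgeR adjusted p = 0.00352), with 1.25 in B cells (adjusted p = 0.000947) and -0.23 in macrophages (adjusted p = 0.163).

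Tbxas1, which encodes thromboxane A synthase, was the one gene called higher in KO B cells and lower in KO macrophages in the joint fit. It was at 4.41, 5.74 and 5.94 CPM in KO B cells and 2.24, 2.61 and 2.40 CPM in WT B cells, and at 277, 264 and 266 CPM in KO macrophages and 419, 434 and 321 CPM in WT macrophages. The B cell level is low and that of macrophages high, and neither pair of groups overlapped. The difference was 1.68 (SE 0.22, edgeR adjusted p = 0.00531). The macrophage effect of -0.54 was called in the joint fit (adjusted p = 0.0153) and by voom (adjusted p = 0.0201). It was not called with macrophages fitted alone (adjusted p = 0.122). Jdp2, named after its values were seen, encodes a repressor of the AP-1 family and was at 3.25, 1.78 and 3.19 CPM in KO B cells and 1.07, 1.15 and 0.89 CPM in WT B cells. Its macrophage levels were 20.7, 17.6 and 18.6 CPM in KO and 22.4, 22.2 and 22.5 CPM in WT, and the difference was 1.62 (SE 0.28, edgeR adjusted p = 0.0267).

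Gsr, which encodes glutathione reductase, was called higher in KO in both cell types and by a larger fold in B cells. It was at 50.1, 52.6 and 49.2 CPM in KO B cells and 25.7, 23.4 and 24.2 CPM in WT B cells, against 474, 499 and 520.4 CPM in KO macrophages and 393, 376 and 409.7 CPM in WT macrophages. The groups were tight and did not overlap in either cell type. The KO effect was 1.05 in B cells and 0.34 in macrophages, with a difference of 0.71 (SE 0.11, edgeR adjusted p = 0.0153, and 0.68 without WT macrophage replicate 3). The macrophage effect was not called by voom (adjusted p = 0.062) or with macrophages fitted alone (adjusted p = 0.167). It was the one gene of the 16 called higher in both cell types whose difference was called.

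For 4 further genes, named after their values were seen, the difference was called with neither KO effect called in the joint fit. Their B cell effects were called by voom (adjusted p = 0.0189 for Ckb, 0.0244 for Smox, 0.0304 for Lilrb4a and 0.00227 for Fam129a), and with B cells fitted alone for all but Smox. Ckb, which encodes a creatine kinase, had KO effects of 1.66 in B cells and -0.57 in macrophages, a difference of 2.23. Smox, which encodes spermine oxidase, had 1.27 and -0.25, a difference of 1.51. Lilrb4a, an inhibitory receptor gene with near-identical relatives, had a difference of 1.21, and Fam129a of 0.82. The difference of Fam129a was not called by voom (adjusted p = 0.0775), while those of Ckb, Smox and Lilrb4a were. Ckb and Smox were at low B cell levels, 2.53, 3.18 and 4.39 CPM in KO and 0.805, 0.767 and 1.60 CPM in WT for Ckb and 1.23, 1.55 and 1.12 CPM in KO and 0.447, 0.537 and 0.623 CPM in WT for Smox. Ptgir and Tbxas1 were called in each fit that left out 1 library, Gsr in 7 of 12, Smox in 9, Jdp2 and Lilrb4a in 3 each, and Ckb and Fam129a in 2 each, with a highest adjusted p of 0.152 for Ckb without B cell WT replicate 2.

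On the other side, the 28 genes with a lower effect in B cells were called higher in KO macrophages in the joint fit, and none of them was called in B cells there. Asns, which encodes asparagine synthetase, was at 74.9, 53 and 93.7 CPM in KO B cells and 57.8, 62.3 and 79.8 CPM in WT B cells, against 68.2, 49.7 and 29.5 CPM in KO macrophages and 6.23, 7.51 and 10.5 CPM in WT macrophages. In B cells the groups overlapped, while the KO macrophage libraries were spread but all above WT. The difference was -2.45 (SE 0.43, edgeR adjusted p = 0.0267), and it was called neither in the voom fit (adjusted p = 0.254) nor with a replicate block (adjusted p = 0.0604).

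Slc7a5, which encodes LAT1, the light chain of a transporter of large neutral amino acids, was at 196, 187 and 211 CPM in KO B cells and 172, 182 and 196 CPM in WT B cells, against 15.3, 14.1 and 16.7 CPM in KO macrophages and 3.16, 2.27 and 5.98 CPM in WT macrophages. The difference was -1.91 (SE 0.29, edgeR adjusted p = 0.0138) and -2.40 without WT macrophage replicate 3, the highest of its WT libraries. Phgdh, which encodes the first enzyme of serine synthesis, was at 347, 360.2 and 409 CPM in KO B cells and 330.5, 359 and 362 CPM in WT B cells, against 10.0, 9.85 and 9.42 CPM in KO macrophages and 4.22, 2.27 and 2.56 CPM in WT macrophages. Both genes overlapped between genotypes in B cells and were apart in macrophages. The Phgdh difference was -1.61 (SE 0.22, edgeR adjusted p = 0.00702, voom adjusted p = 0.0583). Slc6a9, a glycine transporter gene named after its values were seen, was at 5.49, 4.88 and 5.69 CPM in KO B cells and 3.31, 3.99 and 5.96 CPM in WT B cells, against 5.70, 4.67 and 5.53 CPM in KO macrophages and 0.671, 0.611 and 0.664 CPM in WT macrophages, with a difference of -2.73 (SE 0.35). Its WT macrophage levels rest on few reads.

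Fbxl5, which encodes the iron-sensing subunit of a ubiquitin ligase that acts on an iron regulatory protein, had a smaller difference with little spread. It was at 57.2, 57.1 and 57.8 CPM in KO B cells and 61.7, 58.8 and 56.9 CPM in WT B cells, against 613, 567 and 664 CPM in KO macrophages and 335, 318 and 348 CPM in WT macrophages. The B cell groups overlapped, while all KO macrophage libraries lay far above all WT macrophage libraries. The difference was -0.92 (SE 0.11, edgeR adjusted p = 0.00531, voom adjusted p = 0.00397). Slamf1, the signalling lymphocyte receptor CD150 and named after its values were seen, was at 16.5, 15 and 13.7 CPM in KO B cells and 12.1, 12.1 and 10.5 CPM in WT B cells, against 7.97, 7.57 and 9.42 CPM in KO macrophages and 1.34, 0.611 and 1.80 CPM in WT macrophages, with a difference of -2.36 (SE 0.31).

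The rest of the genes named by rule on this side had differences between -1.37 and -0.57. Rgs12, a regulator of G protein signalling, had a B cell effect of -0.0035 and a macrophage effect of 1.36. Pcx, which encodes pyruvate carboxylase, had a macrophage effect of 1.09 and a difference of -1.23. Nedd4, a ubiquitin ligase gene, had a difference of -1.18, Cirbp, which encodes a cold-inducible RNA-binding protein, of -1.10, Zfpm1, which encodes the GATA cofactor FOG1, of -1.08, and Wdr6, a WD repeat gene, of -0.84. Smad2, which encodes a signal carrier of the TGF-beta pathway and is on the list of reported targets, was at 78.3, 73.8 and 72.8 CPM in KO B cells and 86.4, 82.4 and 82.8 CPM in WT B cells, against 69.8, 71.2 and 80.4 CPM in KO macrophages and 54.9, 53.1 and 58.5 CPM in WT macrophages. Its KO libraries were all lower than WT in B cells and all higher than WT in macrophages, and the difference was -0.57 (SE 0.11, edgeR adjusted p = 0.0362).

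Dock9, which encodes a Cdc42 activator, and Bcat1, which encodes the cytosolic branched-chain aminotransferase, are the seed-matched genes on this side. Dock9 was at 69.4, 71.7 and 67.8 CPM in KO B cells and 67.5, 63.3 and 57.4 CPM in WT B cells, against 4.35, 3.21 and 4.09 CPM in KO macrophages and 1.92, 1.40 and 1.61 CPM in WT macrophages. Bcat1 was at 31.3, 26.1 and 37.0 CPM in KO B cells and 38.1, 40.9 and 45.0 CPM in WT B cells, against 2.59, 2.80 and 2.76 CPM in KO macrophages and 1.25, 0.611 and 1.04 CPM in WT macrophages. Bcat1 lay lower in every KO B cell library. That effect was not called in the joint fit (edgeR adjusted p = 0.505) or with B cells fitted alone (adjusted p = 0.0559), and was called by voom (adjusted p = 0.0458). Both genes were higher in KO macrophages at low CPM. The differences were -1.09 (edgeR adjusted p = 0.0294) and -1.89 (adjusted p = 0.0184), and neither difference was called by voom (adjusted p = 0.294 for Dock9 and 0.224 for Bcat1).

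Among the named genes with a lower effect in B cells, the voom fit called Slc7a5, Fbxl5, Wdr6 and Slamf1, and did not call the other 11. Slc6a9, Slamf1, Phgdh and Fbxl5 were called in each of the 12 fits that left out 1 library. Slc7a5, Bcat1 and Wdr6 were called in 10 of 12, Pcx in 6, Nedd4 in 5, Asns, Cirbp, Zfpm1 and Dock9 in 4 each, Rgs12 in 3 and Smad2 in 2. The highest adjusted p was 0.122 for both Rgs12 and Smad2, without B cell WT replicate 1. The stromal and mesothelial markers summed to 271, 210 and 510 CPM in KO macrophages and 149, 97.7 and 243 CPM in WT macrophages, most of it Col1a1 and Col3a1, with Pecam1 among them. Their part in the genes higher in KO macrophages was not tested.

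**Figure D3:**
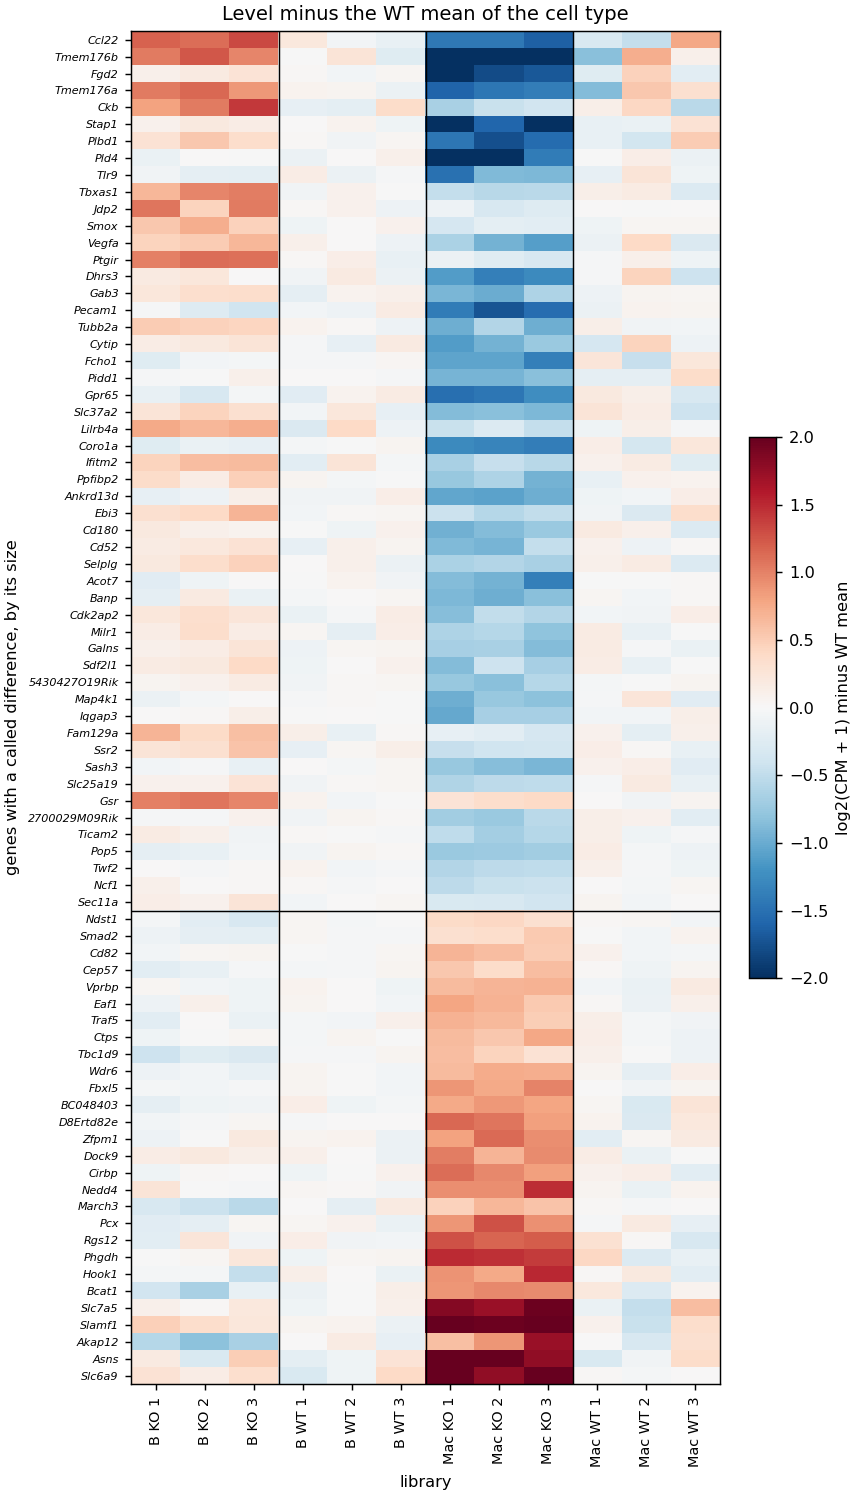
Levels of the 80 genes called for the difference in the 12 libraries, as log2(CPM + 1) minus the WT mean of the same cell type, with the scale ending at 2 in both directions. The 52 genes above the line have pale KO B cell columns for most genes, red for Ccl22, Tmem176b, Tmem176a, Ckb, Tbxas1, Jdp2, Ptgir and Gsr among others, and are blue in the 3 KO macrophage libraries for all but Gsr, while the 28 below it are red there.

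With all libraries, few of the genes whose effect differed held a miR-155 site, and most of the genes called higher in KO in both cell types held one. Of the 80 genes with a called difference, 5 were seed-matched (6.25%, against 13.7% of all genes tested), 71 had no site and none had an 8mer. Among the 1570 seed-matched genes tested, 3 were called with a higher effect in B cells (0.191%, background 0.453%) and 2 with a lower one (0.127%, background 0.244%). Without WT macrophage replicate 3, 108 seed-matched genes were called higher (6.88%, against 9.47% of the 11490 genes tested) and 140 lower (8.92%, against 7.49%), and of genes with an 8mer 24 were called higher and 30 lower. The lower direction was thus under the background with all libraries and over it without that library. Of the 16 genes called higher in KO in both cell types, 15 were seed-matched and 10 of these had an 8mer. The exception was H1f0, which encodes a linker histone and whose longest annotated 3' UTR holds none of these sites. Of the 35 genes called higher in KO B cells 74.3% were seed-matched, and of the 509 called higher in KO macrophages 26.5%, against 8.61% of the 488 called lower there.

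The median KO effect of seed-matched genes was small and similar in the 2 cell types, 0.055 in B cells and 0.068 in macrophages. In genes without a site it was 0.0031 in B cells and -0.052 in macrophages, which enters the comparisons that follow. Seed-matched genes had a median KO effect 0.05 higher than genes without a site in B cells and 0.12 higher in macrophages, and for genes with an 8mer these values were 0.10 and 0.19. The median difference, B cells minus macrophages, was 0.06 lower in seed-matched genes than in genes without a site, 0.07 lower in genes with an 8mer, and 0.11 lower in seed-matched genes without WT macrophage replicate 3. Those medians carry no test, and genes share their libraries.

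Among the targets called higher in both cell types was Picalm, which encodes a clathrin assembly protein. It was at 179.7, 183 and 172 CPM in KO B cells and 96.2, 98.3 and 91.2 CPM in WT B cells, and at 1030.0, 915 and 1018 CPM in KO macrophages and 543, 534 and 529.8 CPM in WT macrophages. All groups were tight, and KO stood well above WT in both. The KO effect was 0.91 in B cells (edgeR adjusted p = 0.000629) and 0.88 in macrophages (adjusted p = 0.00024), and the difference of 0.02 had a 95% interval of -0.23 to 0.27 (intervals are per gene and not adjusted for the number of genes).

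Jarid2, which encodes a cofactor of Polycomb repressive complex 2, was at 101, 99.3 and 105 CPM in KO B cells and 52.9, 54.1 and 54.4 CPM in WT B cells. In macrophages it was at 134, 107 and 118 CPM in KO and 53.5, 48.6 and 79.5 CPM in WT, where WT replicate 3 was the highest WT library and still lay under all KO libraries. The difference was -0.06 (95% interval -0.52 to 0.40) and -0.31 without that library (edgeR adjusted p = 0.0761). Tab2, which encodes an adaptor of the kinase TAK1, was at 188, 173 and 170.4 CPM in KO B cells and 124, 128 and 113 CPM in WT B cells, and at 179, 164 and 170.5 CPM in KO macrophages and 109, 108 and 131 CPM in WT macrophages. Its difference was -0.02 (95% interval -0.31 to 0.26), with KO above WT in both cell types without overlap.

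Bach1, which encodes a haem-sensitive repressor, was at 20.5, 18.1 and 18.6 CPM in KO B cells and 8.86, 8.82 and 9.35 CPM in WT B cells, and at 105, 90.9 and 90.4 CPM in KO macrophages and 52.2, 67.8 and 47.7 CPM in WT macrophages. KO exceeded WT in every library, and the fold was nominally larger in B cells, with a difference of 0.31 whose 95% interval of -0.08 to 0.71 includes 0. Tspan14, a tetraspanin gene, had KO effects of 0.73 in B cells and 0.82 in macrophages, a difference of -0.09 (95% interval -0.47 to 0.30). Uap1, which encodes the enzyme that makes UDP-N-acetylglucosamine, had 0.73 and 0.47, a difference of 0.26 (95% interval 0.03 to 0.49, edgeR adjusted p = 0.29). Wbp1l, which encodes a WW domain-binding protein, leaned the other way with 0.50 in B cells and 0.84 in macrophages, a difference of -0.34 (95% interval -0.61 to -0.07, adjusted p = 0.248). Over the 16 genes the difference ran from -0.34 to 0.71 with a median of 0.03, a description of genes chosen for being higher in both.

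**Figure D4:**
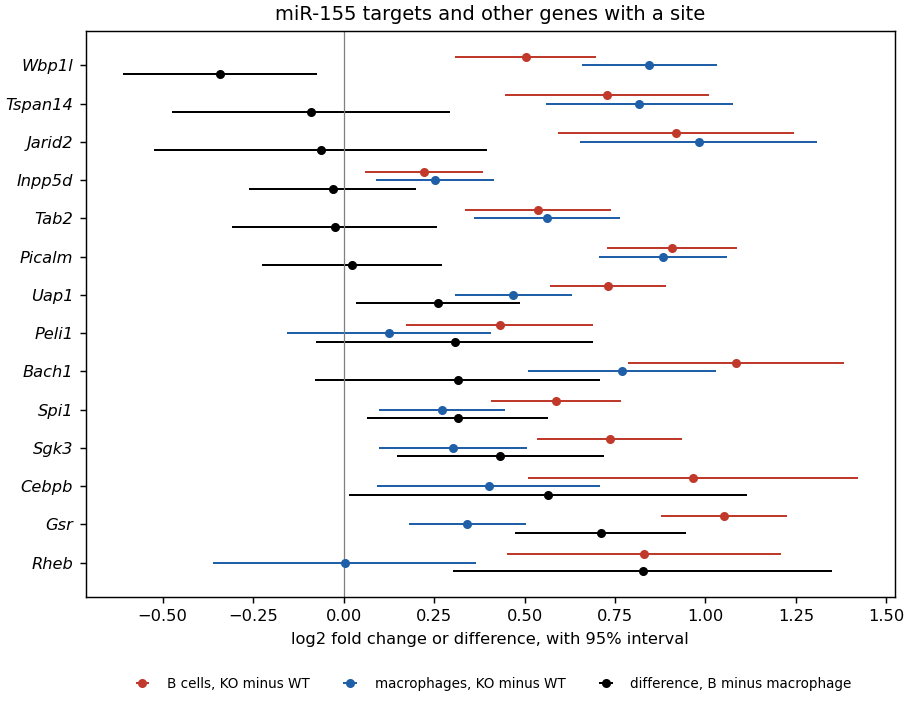
KO effect in B cells (red), KO effect in macrophages (blue) and their difference, B cells minus macrophages (black), for 14 genes with a miR-155 site, as log2 values with 95% intervals. The difference was called for Gsr alone of these genes, the unadjusted black intervals of Wbp1l, Uap1, Spi1, Sgk3, Cebpb and Rheb also lie clear of 0, and for Picalm, Tab2, Inpp5d, Jarid2 and Tspan14 the red and blue values nearly coincide.

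A miss of the threshold does not show equal effects, and for several targets the interval is wide. Spi1, which encodes the transcription factor PU.1, was called higher in KO B cells at 72.4, 77.0 and 81.9 CPM in KO and 51.6, 48.4 and 54.0 CPM in WT. In macrophages, at 393, 391 and 409.6 CPM in KO and 339, 345 and 305 CPM in WT, its effect of 0.27 missed the threshold (edgeR adjusted p = 0.0555). The difference was 0.32 (95% interval 0.06 to 0.57, adjusted p = 0.25), and it was called without WT macrophage replicate 3 (0.36, adjusted p = 0.0212). Sgk3, which encodes a kinase of the AGC family, had 0.74 in B cells and 0.30 in macrophages, a difference of 0.43 (95% interval 0.15 to 0.72, adjusted p = 0.167, and 0.00521 without that library). Cebpb, which encodes the transcription factor C/EBP beta, had a difference of 0.56 (95% interval 0.01 to 1.12) and Peli1, a ubiquitin ligase gene, of 0.31 (95% interval -0.08 to 0.69).

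Rheb, which encodes the GTPase that activates mTORC1, showed KO above WT in B cells and not in macrophages. It was at 38.1, 38.5 and 38.4 CPM in KO B cells and 21.8, 20.7 and 22.2 CPM in WT B cells, against 57.6, 59.2 and 48.7 CPM in KO macrophages and 56.3, 70.6 and 38.2 CPM in WT macrophages. The B cell groups were far apart, while the WT macrophage values enclosed the KO values. The difference of 0.83 (SE 0.24) was not called (edgeR adjusted p = 0.15), and without WT macrophage replicate 3 it was 1.03 and was called (adjusted p = 0.000729). For Inpp5d and Socs1, the targets named above for macrophages, no difference was called. Inpp5d was at 341, 352 and 335 CPM in KO B cells and 299, 299 and 284 CPM in WT B cells, and at 353, 359.6 and 386 CPM in KO macrophages and 304, 298 and 321 CPM in WT macrophages, with a difference of -0.03 (95% interval -0.26 to 0.20). Socs1, at 31.1, 43.7 and 42.3 CPM in KO B cells and 41.5, 43.2 and 36.7 CPM in WT B cells, against 70.9, 60.4 and 67.0 CPM in KO macrophages and 59.6, 23.1 and 130.5 CPM in WT macrophages, had so wide a WT spread that its difference of 0.05 had a 95% interval of -1.28 to 1.38.

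A group of genes was called in B cells alone, and for most of them the difference was not called with all libraries. Of the 35 genes called higher in KO B cells, 16 were called higher in KO macrophages too, 1 was called lower there and 18 were not called there. Of the 18, the difference was called for Ptgir and Jdp2. Nfe2l2, which encodes the antioxidant regulator NRF2, was at 78.6, 75.2 and 86.1 CPM in KO B cells and 40.9, 41.5 and 43.5 CPM in WT B cells, and at 641, 675 and 690.0 CPM in KO macrophages and 469, 613 and 402 CPM in WT macrophages. KO was above WT in both without overlap, and the difference was 0.50 (95% interval 0.09 to 0.90, edgeR adjusted p = 0.258), or 0.62 and called without WT macrophage replicate 3 (adjusted p = 0.00774). Bcl2a1b, a survival gene of the BCL2 family with near-identical copies among which reads could be split, was at 208, 208 and 210.3 CPM in KO B cells and 132, 137 and 140.4 CPM in WT B cells, with macrophage levels of 354, 372 and 313 CPM in KO and 327, 397 and 324 CPM in WT that overlapped. Its difference of 0.63 missed the threshold (adjusted p = 0.0586 in edgeR) and was called by voom, by DESeq2, with a replicate block (adjusted p = 0.0347) and without WT macrophage replicates 2 or 3 (adjusted p = 0.00322 without replicate 3). Wdfy1, an endosomal adaptor gene, was at 21.9, 22.7 and 23.5 CPM in KO B cells and 6.89, 7.06 and 7.39 CPM in WT B cells, with a difference of 1.62 (edgeR adjusted p = 0.0573) that was called by DESeq2, with a replicate block (adjusted p = 0.0285) and without WT macrophage replicates 2 or 3 (1.20, adjusted p = 0.00657 without replicate 3). Nfe2l2, Wdfy1, Mid1 and Pydc3 were named after their values were seen.

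The 2 genes called lower in KO B cells were Mid1 and Pydc3. Mid1, a ubiquitin ligase gene, was at 5.56, 4.11 and 5.69 CPM in KO B cells and 40.2, 29.0 and 29.0 CPM in WT B cells, and at 3.52, 4.98 and 5.83 CPM in KO macrophages and 9.49, 4.37 and 12.7 CPM in WT macrophages. Its difference of -1.79 was not called (edgeR adjusted p = 0.101) except by DESeq2, with a replicate block (adjusted p = 0.048) and without WT macrophage replicates 2 or 3 (-2.16, adjusted p = 0.00846 without replicate 3). Pydc3, a pyrin domain gene of a family of close relatives, was at 1.01, 1.01 and 0.862 CPM in KO B cells and 9.48, 12 and 15.5 CPM in WT B cells, and had at most 0.512 CPM in any macrophage library, so no difference is given for it.

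The pathway lists are described by counts and medians beside those of all genes (0.696% called, median 0.06). Of the 11490 genes tested, DESeq2 called 341 and voom 61 (0.531%), and 13.7% reached an unadjusted p under 0.05 in edgeR. Of 52 reported miR-155 targets, 48 were tested and 1 was called for the difference, Smad2, with a median difference of 0.05. In the joint fit 9 of the 48 were called higher in KO B cells (background 0.305%) and 11 higher and 1 lower in KO macrophages (background 4.43% and 4.25%), and the median KO effect was 0.21 in both cell types. With each cell type fitted alone, 20 were higher in KO B cells (background 2.09% of genes) and 2 higher in KO macrophages (background 0.55%). The median of the list was 0.22, 0.17 and 0.20 above the WT mean in the KO B cell libraries and 0.25, 0.16 and 0.23 above it in the KO macrophage libraries.

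Among 26 tested genes of the BACH1, NRF2 and iron list, Gsr was the gene called for the difference, and the list's median difference was 0.16. Without WT macrophage replicate 3, 9 of the 26 were called higher in B cells (background 9.38%) and the median was 0.34. Hmox1, which encodes haem oxygenase and is repressed by BACH1, was at 5.06, 6.05 and 8.36 CPM in KO B cells and 2.86, 5.29 and 4.01 CPM in WT B cells, against 1523, 1895 and 1888 CPM in KO macrophages and 3216, 3203 and 2555 CPM in WT macrophages. Its macrophage levels were lower in every KO library, and the effect of -0.76 was called (adjusted p = 0.027). The difference of 1.42 missed the threshold (edgeR adjusted p = 0.0615), passed it with a replicate block (adjusted p = 0.0437) and was 1.5 without WT macrophage replicate 3 (adjusted p = 0.00378). Bach1 itself was higher in KO in both cell types, as given above.

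Of 29 genes of the Toll-like receptor pathway, 3 were called for the difference, all with a higher effect in B cells, and the median of the list was 0.02. Tlr9 is given above. Cd180, a receptor related to TLR4, was at 206, 194 and 189 CPM in KO B cells and 179.8, 170.5 and 191 CPM in WT B cells, and at 44.9, 48.0 and 52.3 CPM in KO macrophages and 100.1, 94.2 and 72.7 CPM in WT macrophages, with a difference of 1.0 (SE 0.16, edgeR adjusted p = 0.0184). Its coding sequence overlaps that of Mast4 in the annotation, on the opposite strand, and the handling of strand is not known here. Ly86, which encodes MD-1, the partner of CD180, was at 102, 106 and 106 CPM in KO B cells and 97.2, 95.2 and 98.5 CPM in WT B cells, against 36.0, 38.0 and 39.7 CPM in KO macrophages and 78.6, 96.2 and 44.9 CPM in WT macrophages, and its difference of 1.05 was not called (adjusted p = 0.108) except by voom, by DESeq2 and without WT macrophage replicate 3 (1.31). Ticam2, which encodes the adaptor TRAM of TLR4, had a B cell effect of 0.08 and a macrophage effect of -0.61, a difference of 0.69 (edgeR adjusted p = 0.0476). That difference was not called by voom (adjusted p = 0.0661). Cd180 was called in 5 and Ticam2 in 2 of the 12 fits that left out 1 library, with an adjusted p of 0.141 for Ticam2 without macrophage KO replicate 2.

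With all libraries the list with the largest median difference was that of type I interferon genes, at 0.39 (also 0.39 without WT macrophage replicate 3, when the lysosome, p53 and cholesterol lists lay higher at 0.56, 0.45 and 0.393), and none of its 33 tested genes was called by edgeR, by DESeq2 or by voom (3 at an unadjusted p under 0.05 in edgeR). Its median KO effect was -0.01 in B cells and -0.38 in macrophages. By library, the median level against the WT mean was -0.51, -0.44 and 0.01 in KO macrophages and 0.42, -0.51 and 0.09 in WT macrophages. The WT libraries thus covered the whole range of the KO libraries. Isg15, which encodes a ubiquitin-like modifier, was at 171, 171 and 226 CPM in KO B cells and 173, 164 and 190.5 CPM in WT B cells, against 10.9, 9.02 and 14.4 CPM in KO macrophages and 28.1, 11.9 and 17.0 CPM in WT macrophages.

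Among others, the lists of glycolysis and hypoxia, of lysosome and lipid genes and of p53 and apoptosis genes had medians above that of all genes. In the glycolysis and hypoxia list the median difference was 0.30 and 1 of 23 genes was called, Vegfa, with 6 called lower and 1 higher in KO macrophages. Among these 23, KO effects were above 0 for 17 in B cells and below 0 for 20 in macrophages, against 6013 and 6222 of the 11490 genes tested. For the 29 lysosome and lipid genes the median difference was 0.29 (0.56 without WT macrophage replicate 3), none was called by edgeR, DESeq2 or voom (5 at an unadjusted p under 0.05 in edgeR), and 12 were called higher in B cells without WT macrophage replicate 3 (background 9.38%). Their level in that WT library was 0.41 below the WT mean in the median and in WT replicate 2 it was 0.35 above. For the 24 p53 and apoptosis genes the median was 0.37 with none called by edgeR (4 at an unadjusted p under 0.05, 1 called by DESeq2 and 1 by voom).

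The inflammatory NF-kB list had a median difference of -0.01, and Ccl22 was the 1 of 31 genes called. The median KO effect was 0.01 in B cells, and in macrophages it was under 0.01 with all libraries and 0.41 without WT macrophage replicate 3. The list's median level was 0.57 above the WT mean in that library and 0.58 below it in WT replicate 2. The macrophage value of this list thus rests on which WT libraries are kept. In the prostaglandin and arginine list 1 of 18 genes was called, Ptgir. No gene was called for the difference in the lists of cytokine feedback (28 tested), PI3K and mTOR (27), B cell activation and switching (26), B cell receptor signalling (22), macrophage identity (30), cholesterol synthesis (23), cell cycle (39), MHC and costimulation (24), AP-1 and EGR (23) and PRC2 (11). In edgeR, an unadjusted p under 0.05 was reached by 1576 of all genes tested (13.7%) and by 6, 5, 7, 4, 3, 2, 11, 7, 5 and 1 of these. DESeq2 called 341 of the 11490 genes tested and 3, 1, 2, 1, 0, 0, 1, 1, 2 and 0 of these list members, while voom called none of them.

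**Figure D5:**
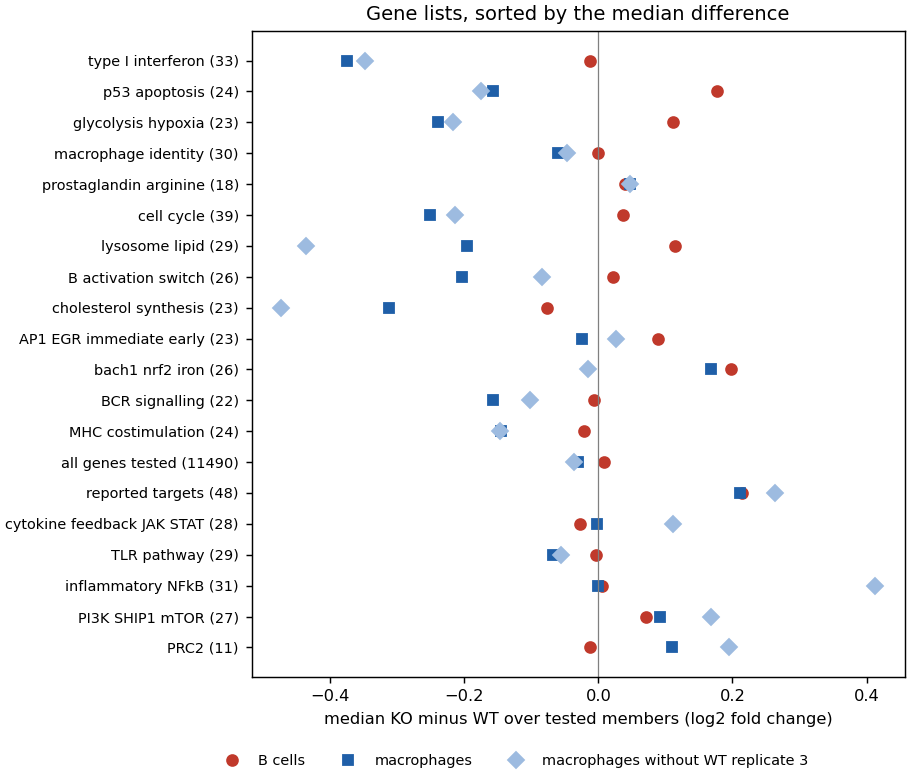
Median KO effect (log2 fold change, KO minus WT) over the tested members of 19 lists and over all genes tested, in B cells (red circles), macrophages (dark blue squares) and macrophages without WT replicate 3 (light blue diamonds), with lists ordered by the median difference and the number tested in brackets. B cell medians lie between -0.08 and 0.21, and for the inflammatory list the macrophage median is near 0 with all libraries and at 0.41 without WT replicate 3.

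Ets1, which encodes a transcription factor of lymphocytes and is a reported target with an 8mer, shows how far the WT macrophages decide a value. It was at 87.4, 94.0 and 76.0 CPM in KO B cells and 92.0, 94.8 and 90.6 CPM in WT B cells, against 22.6, 20.2 and 22.5 CPM in KO macrophages and 7.0, 3.41 and 14.1 CPM in WT macrophages. The B cell groups overlapped, and every KO macrophage library lay above every WT macrophage library, of which replicate 3 was the highest. The difference of -1.53 (SE 0.42) was not called (edgeR adjusted p = 0.12), and it was -2.19 without WT macrophage replicate 3 (adjusted p = 0.000251).

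Among the annotated neighbours of the miR-155 gene, Mrpl39, which encodes a mitochondrial ribosomal protein, was lower in the KO libraries of both cell types. It was at 51.4, 49.9 and 59.8 CPM in KO B cells and 68.2, 70.4 and 70.5 CPM in WT B cells, and at 30.6, 21.5 and 25.1 CPM in KO macrophages and 50.6, 48.1 and 48.6 CPM in WT macrophages. The groups did not overlap in either cell type. Its KO effect was called in macrophages (-0.93, edgeR adjusted p = 0.00119) and not in B cells (-0.38, adjusted p = 0.327), and the difference of 0.55 was not called (adjusted p = 0.148) except without WT macrophage replicate 3 (adjusted p = 0.0212).

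The summed B cell markers of KO and WT B cells overlapped, as did the summed macrophage markers of KO and WT macrophages, while single macrophage markers were called. Fcgr1, which encodes an antibody receptor, was at 167, 167 and 165 CPM in KO macrophages and 442, 294 and 362 CPM in WT macrophages, without overlap (macrophage effect -1.14, edgeR adjusted p = 0.00104). Lyz2 made up the largest share of the macrophage sum. Of the 30 macrophage identity genes, 7 were called lower and 1 higher in KO macrophages (background 4.25% and 4.43%). The 8 macrophage markers summed to 15.4 ± 2.06 CPM in KO B cells and 15.9 ± 3.00 CPM in WT B cells (SD, n = 3 each). In macrophages they summed to 42750 ± 1686 CPM in KO and 41790 ± 3411 CPM in WT (exact permutation p = 0.8). The 8 B cell markers summed to 3463 ± 160 CPM in KO B cells and 3550 ± 148 CPM in WT B cells (exact permutation p = 0.6). T cell markers in B cells summed to 64.4 ± 4.91 CPM in KO and 85.2 ± 4.45 CPM in WT, without overlap (exact permutation p = 0.1, the smallest that 3 against 3 libraries can give). Most of that sum was Cd2, Lck and Thy1. Cd3g and Trat1 were at 0, and Cd3e, Cd3d, Cd4 and Cd8a reached at most 0.689 CPM in any B cell library. Neutrophil markers in macrophages summed to 649 ± 32.7 CPM in KO and 675 ± 95.9 CPM in WT, most of it Csf3r, with S100a8 at 40.7 to 65.2 CPM. Ly6g, Cxcr2 and Ngp were at 0, and S100a9 reached at most 0.0959 CPM. In bulk RNA, fewer cells of a type and less RNA per cell cannot be told apart, and the part of these cells in the results was not tested.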

How the data were processed

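The deposited files hold raw counts of reads per gene symbol, unnormalized. The authors' pipeline used cutadapt, STAR and genome build mm9, per the submitters' processing notes; the counting tool and strand setting were not stated in those notes. Lines naming no gene (51.7 to 53.7% of each library's counts) were left out of totals and tests.

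Groups came from sample titles. The 12 libraries were fitted in edgeR 4.0.16 (R 4.3.3, limma 3.58.1) with 4 group means, TMM scaling, filterByExpr and the robust quasi-likelihood test, with Benjamini-Hochberg adjustment over 11490 genes and a threshold of 0.05. The tests are two-sided. Standard errors are the absolute log2 fold change over the square root of F. The fit was tested on simulated data. Alternatives included DESeq2 1.42.0, voom with group weights, other scalings and filters, all 24 libraries, a replicate block and leaving out each library. Replicate numbers come from the titles; deviations of same-numbered KO and WT libraries correlated above 0.1 for all 3 macrophage pairs and 2 of 3 B cell pairs, so blocked values are given where a call changes. Marker sums used an exact permutation test (smallest p 0.1).

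Named genes were the 10 largest called differences in each direction at 5 CPM or more in both cell types, the 10 smallest-p called genes holding an 8mer or 7mer, the 10 smallest-p genes called in both cell types with effects of the same or of opposite sign, 9 reported targets, up to 4 genes per list by p, and the neighbours of Mir155. Genes outside that rule are marked as named after their values were seen. The members and lists were chosen with earlier results of these data known. Sites were searched in the longest 3' UTR of GENCODE M21 on GRCm38, which is not the files' build; of 20673 symbols, 19967 matched directly, 566 by an older name and 140 not, and 19997 had a 3' UTR. The miRNA comes from RefSeq (GRCm38.p6). CPM scatter covers library spread only. Some single-gene results are not reported here.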

Additional observations from a re-analysis of the deposited data

Results flagged for a closer look

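The genes listed here are those named above whose KO effect differed between B cells and macrophages by the test of the difference itself (edgeR quasi-likelihood, adjusted p under 0.05). Values are the KO effect in B cells minus that in macrophages, on the log2 scale.

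Higher effects in B cells were found for Ccl22 (4.12), Tmem176b (3.89), Fgd2 (3.37), Tmem176a (3.33), Ckb (2.23), Stap1 (2.18), Plbd1 (2.03), Pld4 (2.0) and Tlr9 (1.80). They were also found for Tbxas1 (1.68), Jdp2 (1.62), Smox (1.51), Vegfa (1.51), Ptgir (1.49), Dhrs3 (1.45), Pecam1 (1.42), Tubb2a (1.37) and Cytip (1.32). The smaller ones were Slc37a2 (1.27), Lilrb4a (1.21), Cd180 (1.0), Fam129a (0.82), Gsr (0.71) and Ticam2 (0.69).

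Lower effects in B cells were found for Slc6a9 (-2.73), Asns (-2.45), Slamf1 (-2.36), Slc7a5 (-1.91), Bcat1 (-1.89), Phgdh (-1.61), Rgs12 (-1.37) and Pcx (-1.23). The rest were Nedd4 (-1.18), Cirbp (-1.10), Dock9 (-1.09), Zfpm1 (-1.08), Fbxl5 (-0.92), Wdr6 (-0.84) and Smad2 (-0.57). Of these 39 genes, 14 were called in each of the 12 fits that left out 1 library.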

How the results depend on the processing

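The count of 80 called differences was within 1.5 times under RLE size factors (75), TMM within each cell type (74), upper quartile scaling (98), no filter (81), a 1 CPM filter (77), a test that was not robust (76) and voom (61). It was 341 with DESeq2 (169 higher and 172 lower in B cells), 327 with all 24 libraries (190 and 137) and 128 over the genes expressed in both cell types (75 and 53). voom gave 14 lower. DESeq2 called 10 seed-matched genes as higher and 28 list members, and the fit of 24 libraries 19 and 21, against 3 and 8.

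In B cells DESeq2 called 108 genes (88 higher, 20 lower), voom 246 (187 and 59), all 24 libraries 81 (67 and 14) and the fit of B cells alone 325 (212 and 113). In macrophages DESeq2 called 807 higher, voom 393 (207 and 186), all 24 libraries 1755 (813 and 942) and the fit of macrophages alone 95 (59 and 36). The cause of these shifts was not tested.

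With the replicate block, 128 differences were called (83 higher, 45 lower), with 5 seed-matched genes higher. Same-numbered KO and WT libraries correlated in their deviations at 0.13, 0.03 and 0.15 in B cells and 0.13, 0.25 and 0.34 in macrophages. The 3 macrophage pairs passed 0.1 and the B cell pairs did not all do so. Of the 6 KO libraries, 5 correlated best with their own number. The blocked counts of the KO effects, 39 in B cells and 1360 in macrophages, were within 1.5 times.

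Leaving out 1 library gave 16 to 1950 differences (12 to 1089 higher, 4 to 861 lower), 1 to 108 seed-matched genes higher and 2 to 99 list members. It gave 6 to 111 genes in B cells (4 to 93 higher, 2 to 18 lower) and 351 to 3864 in macrophages (211 to 1796 higher, 140 to 2068 lower).

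The sign turned for Picalm under RLE size factors (-0.012), TMM within each cell type (-0.00021) and DESeq2 (-0.012), and for Socs1 under voom (-0.31) and the replicate block (-0.24). Leaving out 1 library gave -0.037 to 0.051 for Picalm, -0.74 to 0.45 for Socs1, -0.13 to 0.015 for Tab2, -0.31 to 0.053 for Jarid2 and -0.26 to 0.030 for Tspan14; none of these was called.

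Of the named calls, Ckb, Cytip, Fam129a, Ticam2 and Tlr9 were lost under RLE size factors and under TMM within each cell type. Ckb was also lost under upper quartile scaling, the 1 CPM filter, the test that was not robust (with Cytip) and all 24 libraries (with Lilrb4a and Nedd4). Asns was lost with the replicate block, which added the differences of Hmox1, Bcl2a1b, Wdfy1 and Mid1 and changed no other named difference's call, and, with Ticam2, without a filter.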
